A study of Rattus norvegicus with 31 samples.

Results

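The genes described here encode collagens, laminins, fibulins, thrombospondins and SPARC family proteins of the extracellular matrix, the lysyl oxidases that cross-link it, and the MMP and ADAMTS proteases with their TIMP inhibitors. They were taken by symbol: Col, Lama, Lamb, Lamc, Timp, Mmp, Adamts, Fbln or Thbs followed by a digit, or a symbol that begins with Lox or Sparc. These symbols matched 76 probes for 75 genes, and 27 genes had a probe with a detection p-value under 0.01 on at least 4 of the 31 arrays, out of 7088 genes tested. The symbols and the detection limit used no difference between groups, but the genes were chosen with earlier results of these data known. Of the other genes matched, 40 were detected on 0 arrays and 8 on 1 to 3 arrays. The 27 are therefore the detected part of the genes matched, not the whole family. Other genes of the family, such as Col4a2, Lama5, Thbs1 and Timp4, had no probe under their symbol here and were not examined.

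Gene expression was measured in striata of male Sprague-Dawley rats on Illumina RatRef-12 BeadChips, with 1 array for each striatum. Hemiparkinsonian rats were made by injecting 6-OHDA, which kills dopamine neurons, into the left medial forebrain bundle (5 µl at 2 µg/µl), and were tested for rotation with apomorphine on day 24 and with methamphetamine (METH) on day 31. They were then given saline or METH at 2.5 mg/kg and killed 2 h later. The 6 groups were the lesioned side after METH (ML, n = 6), the lesioned side after saline (SL, n = 6), the intact side after METH (MNL, n = 6), the intact side after saline (SNL, n = 5), and rats without 6-OHDA given METH (MC, n = 4) or saline (SC, n = 4). Arrays are named by group and by the striatum number in the labels. Left and right striata of 1 animal cannot be matched from the labels. The tests therefore counted each striatum as independent, and p-values reflect only how these striata spread, which may be partly technical. The control rats differ from the hemiparkinsonian rats in surgery and toxin as well as in the loss of dopamine input. The authors also report lower serotonin on the lesioned side. All 6-OHDA rats, also those later given saline, had the earlier apomorphine and METH tests. Whether the control rats had them is not clearly stated. These differences cannot be told apart.

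In the brain, collagen IV and laminins form the basement membrane that surrounds blood vessels, while fibrillar collagens such as collagen I and V lie mainly in the meninges, the choroid plexus and the walls of larger vessels. SPARC and SPARC-like 1 (hevin) are matricellular proteins secreted largely by astrocytes and vascular cells, with opposing roles at synapses. Matrix metalloproteinases cleave matrix and cell surface proteins, ADAMTS proteases cleave proteoglycans such as brevican and versican, and TIMPs inhibit metalloproteinases. Lysyl oxidases make the cross-links of collagen and elastin fibres.

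Each array detected between 8042 and 9451 probes, and the median signal lay between 7.83 and 12.71. The lowest detected signal of an array lay between 15.3 and 27.0, and many of the genes lie close to it. The 10 measured markers of striatal projection neurons, out of 12 listed, were each detected on all 31 arrays. The signals of ML 22 and SL 32 stood 4 rows away from their probe names and were moved back. The arrays that resembled the others least were SC 6 (r = 0.985 with the median of the other arrays), SNL 19 (0.987) and SC 8a (0.988). Markers of the choroid plexus, the ventricular tissue that makes cerebrospinal fluid, were raised on ML 10, ML 30, SNL 11, SL 4, SL 12 and MC 7, with 8 of 12 markers measured.

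Detection differed between the families. Of 6 matricellular and fibulin genes matched, 3 were detected, Fbln1, Sparc and Sparcl1, each on all 31 arrays, and 2, Thbs2 and Thbs4, were detected on 0. Of 3 inhibitor genes, Timp1 and Timp2 were detected on all 31 arrays. Of 20 metalloproteinase genes matched, 14 were detected on 0 arrays, among them Mmp2, the main gelatinase of the resting brain, and Mmp3 (stromelysin-1) and Mmp12 (macrophage elastase). The 4 detected were Mmp9, Mmp14, Mmp16 and Mmp17. Of 11 Adamts genes, 4 were detected, with Adamts1 on 29 arrays and Adamts19 on 4. Among 9 fibrillar collagen genes, 5 were detected; the partner chains of collagen I were split, since Col1a2 was detected on all 31 arrays and Col1a1 on 0. Timp3, an inhibitor bound to the matrix, was detected on 0 arrays, which says that its probe was not above background and not that the gene was silent. Col4a1, the basement membrane collagen, was detected on all 31 arrays and Lamb2, the only one of 5 matched laminin chains that passed, likewise. Lama5, which the authors list as higher in SL than in SNL, had no probe under its symbol and was not examined.

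No matrix gene passed the test in any of the planned comparisons (limma, 1 fit of the 6 group means, Benjamini-Hochberg adjusted p under 0.05 over 9732 probes). The background was also low. Between SL and SNL 0 of 27 genes were called, against 0.0822% of all probes, and between ML and SNL 0 of 27 against 0.0925%. Between ML and MNL the count was 0 of 27 against 0.123% of probes, and for the lesion effect averaged over both treatments 0 of 27 against 0.175%. METH gave 0 of 27 on the intact side (MNL against SNL, 0.113% of probes), 0 of 27 on the lesioned side (ML against SL, 0% of probes) and 0 of 27 in control rats (MC against SC, 0.0103% of probes). The METH effect averaged over these 3 settings called 0 of 27 genes and 0.123% of probes. The difference between the METH effects of the lesioned and the intact side called 0 of 27 genes and 0% of probes, and SNL against SC likewise 0 of 27 and 0% of probes. A test of any difference among the 6 groups called 0 of 27 genes and 0.37% of probes.

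At an unadjusted p under 0.05, the comparison of SL with SNL held 2 of 27 genes (7.41%, against 4.73% of all probes), ML with SNL 2 (4.52% of all probes), ML with MNL 1 (2.21%), MC with SC 1 (6.25%) and SNL with SC 3 (11.1%, against 4.08%). It was 0 of 27 for MNL against SNL (5.21% of all probes), ML against SL (1.9%), the METH effect over 3 settings (9.62%) and the difference between METH effects (2.14%). It was 1 for the lesion effect (3.4% of all probes) and 2 for the test over the 6 groups (7.13%). The median difference of the 27 genes was 0.10 on the log2 scale for SL against SNL, with 16 above 0 and 11 below, while the median of all probes was -0.01. For ML against SL the median was -0.03, with 11 above 0 and 16 below. The 95% interval of a difference between SL and SNL had a median half-width of 0.36 on the log2 scale, and for 26 of 27 genes it lay between -1 and 1. Col8a1 was the exception.

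**Figure D1:**
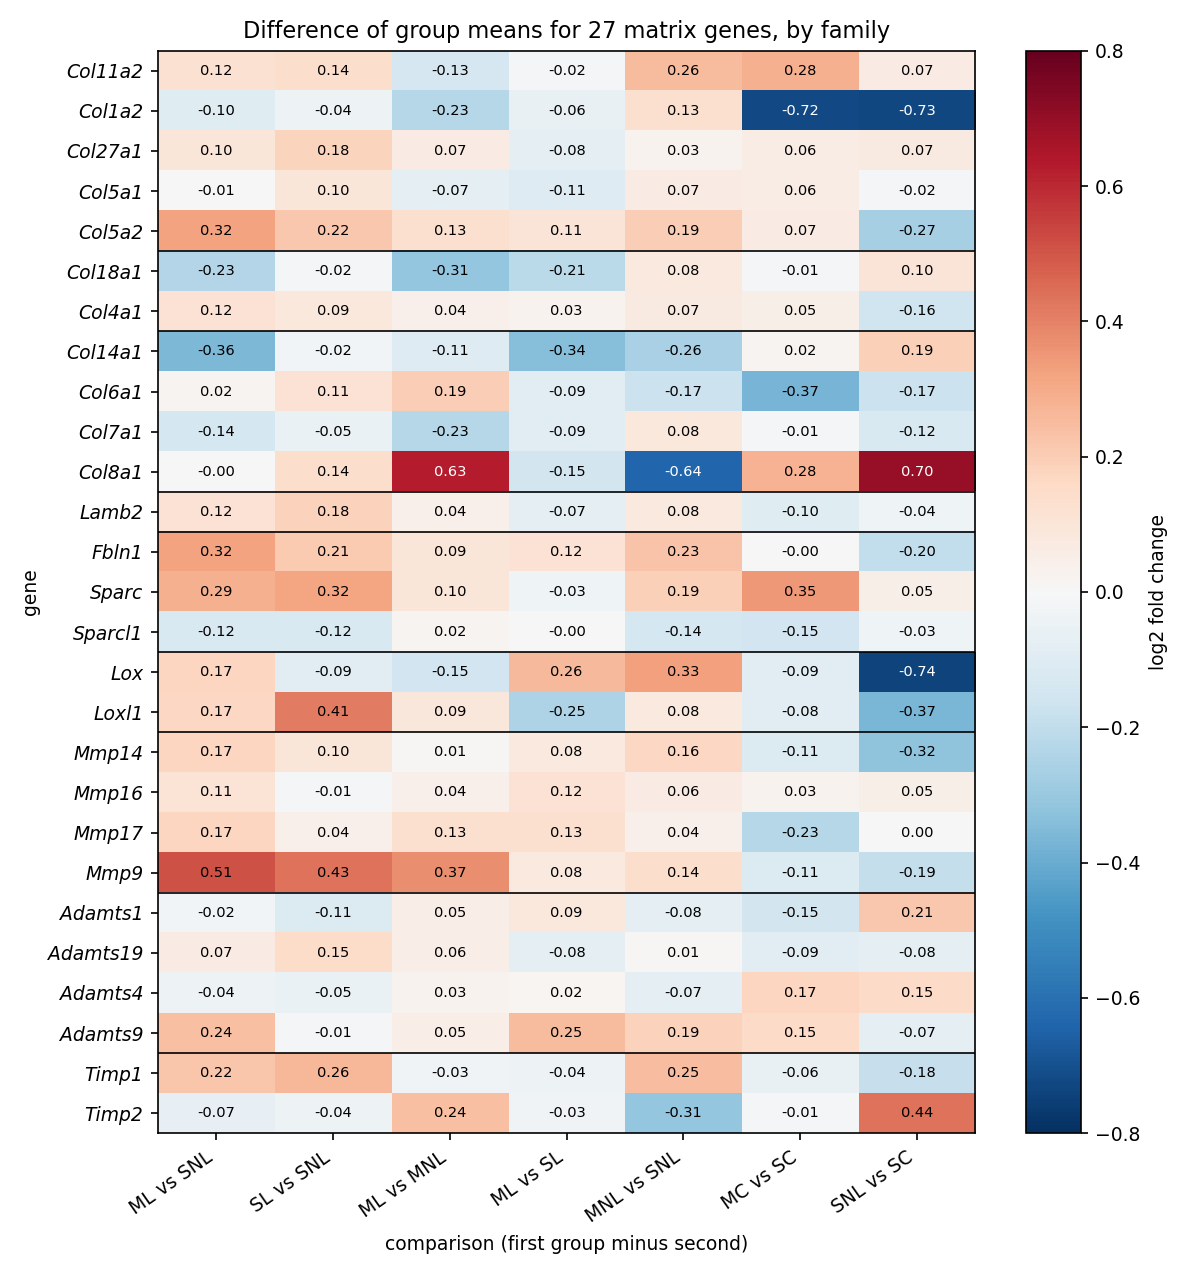
Difference of group means on the log2 scale for the 27 genes (down) in 7 comparisons (across, first group minus second), with horizontal lines between families. Differences are mostly small, the largest being those of Lox (-0.74 for SNL vs SC), Col1a2 (-0.73), Col8a1 (0.70) and Mmp9 (0.51 for ML vs SNL); none passed the test.

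Mmp9 (probe ILMN_2039240), the gelatinase that is released by activated neurons, microglia and infiltrating leukocytes, had the smallest p of the 27 genes in each comparison of a lesioned with an intact striatum. Its normalized log2 intensity was 5.69, 5.67, 5.39, 5.82, 5.74 and 5.53 in SL 4, 12, 20, 24, 28 and 32, against 5.48, 5.44, 5.06, 5.16 and 4.88 in SNL 3, 11, 19, 23 and 27. In ML 2, 10, 18, 22, 26 and 30 it was 6.06, 5.60, 5.63, 5.81, 5.76 and 5.45, against 5.41, 5.68, 5.15, 5.28, 5.61 and 4.94 in MNL 1, 9, 17, 21, 25b and 29. Lesioned striata stood higher in both treatments, and the groups overlapped in both: SL 20 was below SNL 3 and SNL 11, and MNL 9 was above several ML arrays.

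The probe was detected on 6 of 6 ML and 6 of 6 SL arrays, against 3 of 6 MNL and 2 of 5 SNL arrays. It was detected on 2 of 4 MC and 2 of 4 SC arrays, where its means were 5.29 ± 0.18 and 5.39 ± 0.34 (SD, n = 4 each). Its background-subtracted signal was highest in ML 2, at 75.7, where the lowest signal detected was 26.4, and lowest in SNL 27, at 11.2, where the lowest signal detected was 20.3.

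The difference was 0.43 ± 0.14 (SE) on the log2 scale for SL against SNL, a 1.35-fold ratio (95% interval 1.11 to 1.65, limma adjusted p = 0.908). It was 0.51 ± 0.14 for ML against SNL (1.42-fold, 1.17 to 1.74, adjusted p = 0.50) and 0.37 ± 0.14 for ML against MNL (1.29-fold, 1.07 to 1.57, adjusted p = 0.9999). Averaged over both treatments the lesion effect was 0.40 ± 0.10, or 1.32-fold (1.15 to 1.52), with an unadjusted limma p of 0.000287 and an adjusted p of 0.127. ML minus SL, the METH effect on the lesioned side, was 0.08 ± 0.14, with an interval from -0.20 to 0.35. Comparisons that share the SNL or ML arrays are not independent of each other. These fits counted the 2 sides of a rat as independent. Where the 2 sides deviate together, this can make p too large for SL against SNL, ML against MNL and the lesion effect. A fit with neighbouring striatum numbers as a replicate block, in which Mmp9 was called, is given with the alternatives at the end. With signals floored at 1 and globally scaled in place of neqc, the differences were 0.76 for SL against SNL, 0.87 for ML against SNL, 0.59 for ML against MNL and 0.68 for the lesion effect (adjusted p between 0.356 and 0.9996).

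Markers of several other cell types also leaned to one side between these groups, with 0 called outside the list of projection neurons. Of all probes, 45.5% were above 0 in SL against SNL and 45.6% in the lesion effect. Projection neuron markers were below 0 in 8 of 10 in both (medians -0.22 and -0.15), with 1 higher and 1 lower called in the lesion effect. Astrocyte markers were below 0 in 7 of 8 in both (medians -0.06 and -0.07). Of 12 microglial markers listed, 9 were measured; 8 of 9 were above 0 in SL against SNL (median 0.23) and 8 of 9 in the lesion effect (median 0.14). For microglia it was 7 of 9 in ML against MNL, with a median of 0.07, and 7 of 9 in MNL against SNL, with a median of 0.19, where Mmp9 differed by 0.14 ± 0.14. Choroid plexus markers were above 0 in 8 of 8 in SL against SNL (median 0.23) and in the lesion effect (median 0.46). Their mean was 8.84 in SL 4, 6.17 in SL 12 and 4.86 to 5.26 in the other SL arrays. In SNL it was 7.42 in SNL 11 and 4.86 to 5.29 in the others, so the 8 of 8 rests on a few arrays. Without the 6 arrays highest in these markers the lesion effect on Mmp9 was 0.47 (limma adjusted p = 0.144). That fit was added after the data had been seen and is not a test of the part of choroid plexus. Oligodendrocyte markers were below 0 in 9 of 10 in SL against SNL (median -0.29) and in 8 of 10 in the lesion effect (median -0.15). The summed signal of the 9 microglial markers ranged from 4440 to 8007 in SL and from 2395 to 5930 in SNL, and the defining marker Cx3cr1 was detected on 0 arrays. The part of these cell types and of choroid plexus in the Mmp9 difference was not tested. In bulk tissue, more cells of a type and more RNA per cell cannot be told apart.

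The other metalloproteinases differed less, with lesion effects of 0.05 for Mmp14, 0.02 for Mmp16 and 0.09 for Mmp17. With Mmp9, 4 of 4 were above 0 in the lesion effect (median 0.07) and 3 of 4 in SL against SNL. Mmp14, the membrane-bound activator of pro-MMP2, spanned 5.51 to 7.65 in SL (median 6.39) and 5.67 to 6.82 in SNL (median 6.45), with a difference of 0.10 ± 0.28. Its lowest and highest values among all 31 arrays were both in SL, SL 32 and SL 4. Mmp16, another membrane-type enzyme, was detected on all 31 arrays and had one of the smallest spreads, a within-group SD of 0.21. Mmp17 was detected on 8 arrays: 3 of 6 ML, 1 of 6 SL, 2 of 6 MNL, 0 of 5 SNL, 0 of 4 MC and 2 of 4 SC arrays.

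**Figure D2:**
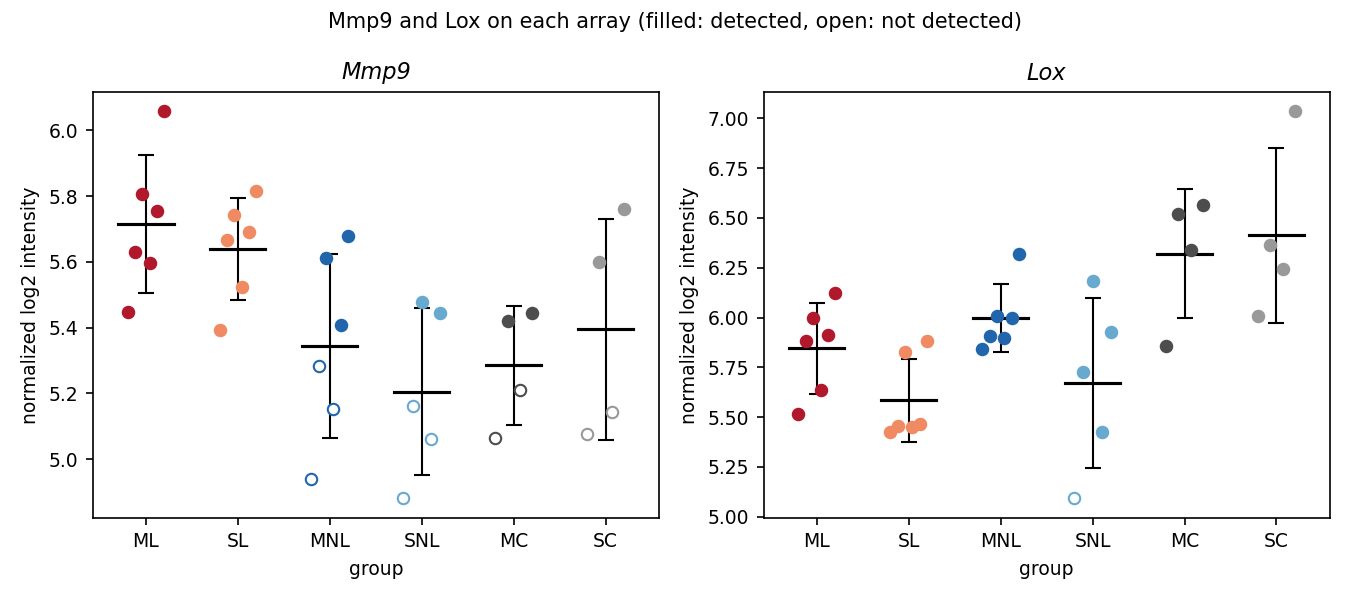
Normalized log2 intensity of Mmp9 (left) and Lox (right) on each array by group; points are arrays (filled where detected, open where not), lines and bars are the mean and SD. Mmp9 was detected on all 12 ML and SL arrays, and Lox lay higher in most MC and SC arrays than in the groups of 6-OHDA rats.

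Lox (probe ILMN_1376823), lysyl oxidase itself, varied most among the 6 groups relative to its spread (limma F test over groups, adjusted p = 0.0789). Its lowest, median and highest values were 5.52, 5.90 and 6.12 in ML, 5.43, 5.46 and 5.88 in SL, and 5.84, 5.95 and 6.32 in MNL. In SNL 3, 11, 19, 23 and 27 it was 5.73, 5.93, 6.18, 5.09 and 5.42. In control rats it was 6.34, 6.56, 5.86 and 6.52 in MC 5, 7, 13 and 14, and 7.04, 6.36, 6.01 and 6.25 in SC 6, 8a, 15 and 16. Both sides of the 6-OHDA rats stood below the control rats on average, in the order SL (mean 5.58), SNL (5.67), ML (5.84), MNL (6.00), MC (6.32) and SC (6.41), and the groups overlapped. Each mean differed from the next in this order by less than the within-group SD of Lox over all groups, 0.30, except MC from MNL.

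SNL minus SC was -0.74 ± 0.19, a ratio of 0.598 (95% interval 0.455 to 0.785), with an unadjusted limma p of 0.000569 and an adjusted p of 0.986. SL minus SNL was -0.09, with an interval from -0.44 to 0.27, and MC minus SC was -0.09, from -0.51 to 0.32. METH minus saline was 0.33 on the intact side (MNL against SNL, adjusted p = 0.839) and 0.26 on the lesioned side (ML against SL, adjusted p = 0.9999).

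After these values had been seen, the mean of the 4 groups of 6-OHDA rats was set against the mean of MC and SC. In this comparison Lox fell by 0.59 ± 0.12 (SE) on the log2 scale, with a mean of 5.77 in 6-OHDA rats and 6.37 in control rats (limma adjusted p = 0.0310). It was the only one of the 27 genes called, 1 of 27 against 0.134% of all probes; at an unadjusted p under 0.05 there were 2 of 27, against 11.4% of all probes. The other was Timp2 (0.34 ± 0.13, adjusted p = 0.339). Because the comparison was chosen for Lox on the same arrays, its p is too small by an unknown amount. The fit also counted the 2 sides of a 6-OHDA rat as independent, which can make the SE and p too small. With neighbouring striatum numbers as a replicate block the limma adjusted p was 0.0499, though the labels do not state this pairing. The call was lost on leaving out any 1 of SC 6 (adjusted p = 0.110, difference -0.49), SC 8a (0.0660), MC 5 (0.0682), MC 7 (0.128), MC 14 (0.0965), MNL 17 (0.0504) or SNL 27 (0.0563), and under median scaling (adjusted p = 0.380).

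SC 6, which had the highest Lox value of all arrays, was also among the highest in meningeal fibroblast markers, with a mean log2 intensity of 6.98 over 8 of 12 markers measured. This mean was higher still in SL 4 (7.26), ML 10 (7.01) and SNL 11 (6.99). Lox was at most 5.88 in SL, 6.12 in ML and 6.18 in SNL. The mean of these markers ranged from 6.62 to 6.98 in SC and 6.32 to 6.71 in MC, against 6.21 to 7.26 in SL, 6.23 to 6.99 in SNL, 6.35 to 6.96 in MNL and 6.37 to 7.01 in ML. Of the 8 markers 5 were lower in 6-OHDA rats than in control rats, with a median difference of -0.08, and Slc6a13 and Slc47a1 were detected on 0 arrays. Choroid plexus markers moved the other way, with 8 of 8 higher in 6-OHDA rats and a median of 0.29. They were high together on a few arrays, ML 10, ML 30, SNL 11, SL 4 and SL 12, and among control rats on MC 7. The part of these tissues in the Lox difference was not tested. The position of an array on its chip is not given in the sources used here.

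Loxl1, a lysyl oxidase needed for elastic fibres, had the second-smallest p of the 27 genes in SL against SNL, and this rested on 1 array. Its values were 7.04, 6.00, 5.80, 6.03, 6.01 and 5.74 in SL 4, 12, 20, 24, 28 and 32, against 5.91, 5.93, 5.79, 5.62 and 5.19 in SNL 3, 11, 19, 23 and 27. SL 4 stood alone at the top and SNL 27 at the bottom, and the rest overlapped. The difference was 0.41 ± 0.18 (1.33-fold, 95% interval 1.03 to 1.72, limma adjusted p = 0.908), and 0.23 without SL 4. Loxl1 was the only gene with more than 1 probe, and its second probe gave 0.07 for the same comparison. The mean signal of that probe was 44.4 and it was detected on 30 arrays, against 46.2 and 29 arrays for the probe used.

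Among the fibrillar collagens, the differences of Col1a2 rested on single striata. MC 5, 7, 13 and 14 had 8.56, 9.18, 8.42 and 9.18, and SNL 3, 11, 19, 23 and 27 had 8.65, 9.37, 9.32, 8.43 and 8.39, against 10.73, 9.16, 9.23 and 9.11 in SC 6, 8a, 15 and 16. SC 6 stood far above its group, and the remaining SC arrays overlapped with MC and with SNL. MNL 1 reached 10.27 while the other MNL arrays lay between 8.53 and 8.90. The difference was -0.72 ± 0.34 for MC against SC (limma adjusted p = 0.770) and -0.73 ± 0.32 for SNL against SC (adjusted p = 0.986), and without SC 6 it was -0.33 and -0.34. Of the 8 meningeal markers 7 were below 0 in both comparisons, with medians of -0.17 and -0.18. Their mean was 6.96 in MNL 1 and 6.98 in SC 6. It was higher still in SL 4 (7.26), ML 10 (7.01) and SNL 11 (6.99), where Col1a2 was 9.46, 8.85 and 9.37. Their part in the Col1a2 values was not tested.

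**Figure D3:**
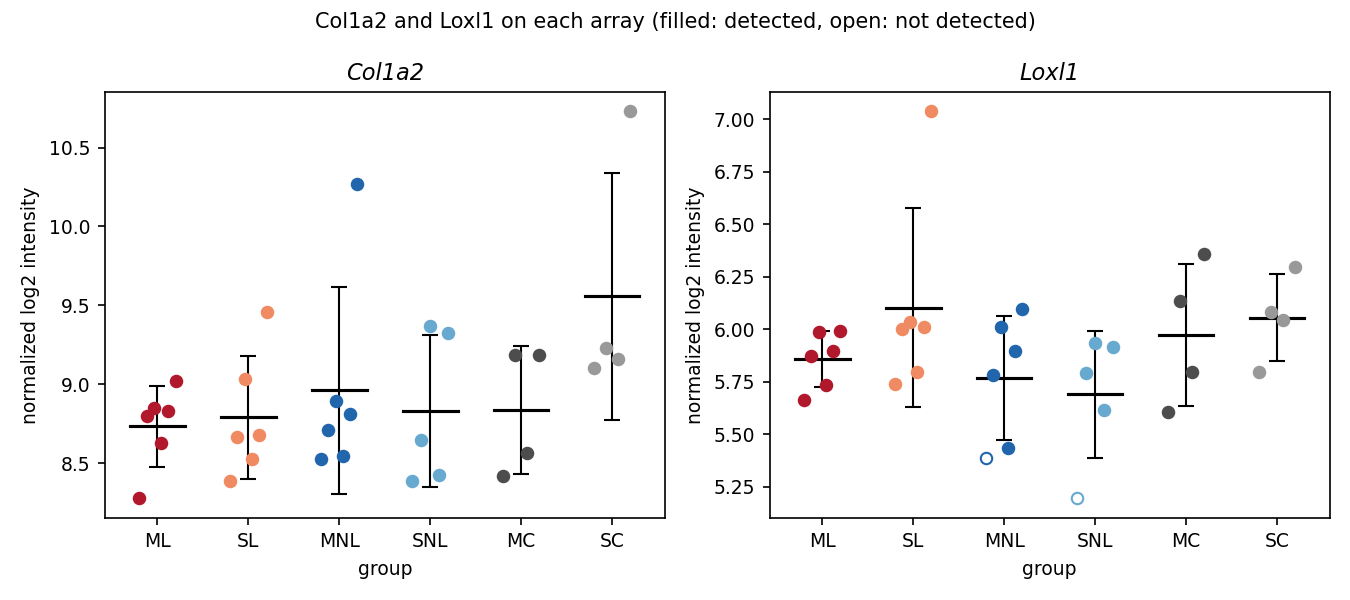
Normalized log2 intensity of Col1a2 (left) and Loxl1 (right) on each array by group, with mean and SD; filled points were detected. MNL 1 (10.27) and SC 6 (10.73) stand far above their groups for Col1a2, and SL 4 (7.04) does so for Loxl1.

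Col5a2, which assembles with collagen I into fibrils, was 6.92, 6.80, 6.58, 6.86, 6.81 and 7.19 in ML 2, 10, 18, 22, 26 and 30, against 6.68, 6.44, 6.96, 6.18 and 6.43 in SNL 3, 11, 19, 23 and 27. Only SNL 19 stood within the upper ML values, and the groups overlapped through it and SNL 3. The difference was 0.32 ± 0.13 (1.25-fold, 95% interval 1.03 to 1.51, limma adjusted p = 0.930). In SL it was 6.60 to 6.90, with a difference from SNL of 0.22 ± 0.13. Col11a2, Col27a1 and Col5a1 differed from SNL by 0.12, 0.10 and -0.01 in ML.

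Among the basement membrane genes, Col4a1 had the smallest within-group SD of the 27 genes, 0.14, with lowest, median and highest values of 5.70, 5.83 and 6.19 in SL, against 5.75, 5.83, 5.69, 6.04 and 5.64 in SNL 3, 11, 19, 23 and 27, so that the groups overlapped. Its difference was 0.09 between SL and SNL, with an interval from -0.10 to 0.28, and 0.05 between MC and SC, from -0.17 to 0.27, which leaves room for changes of up to 1.21-fold on the lesioned side. Lamb2, the laminin β2 chain of mature vessel and synaptic basement membranes, had means of 7.79 ± 0.22 in SL (n = 6) and 7.60 ± 0.15 in SNL (n = 5), overlapping, with a difference of 0.18 ± 0.14. Col18a1, whose cleavage yields endostatin, was detected on 22 arrays and was lowest in ML 10 (4.63) and highest in SL 28 (6.32). Its within-group SD of 0.42 was among the widest of the 27 genes, and its group means spanned 0.31.

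Sparc and Sparcl1 were bright on every array. Sparc was 9.21, 9.67, 9.61, 9.34, 9.75 and 9.46 in SL 4, 12, 20, 24, 28 and 32, against 9.02, 8.94, 9.33, 9.28 and 9.38 in SNL 3, 11, 19, 23 and 27. The SL arrays lay mostly above, overlapping at SL 4 and SL 24, and the difference was 0.32 ± 0.21 (limma adjusted p = 0.908). Sparcl1 ranged from 12.75 to 13.48 in SL and from 12.85 to 13.48 in SNL, with a difference of -0.12 and an interval from -0.40 to 0.16. Fbln1, a fibulin of basement membranes and elastic fibres, was 8.64 to 9.04 in SL and 7.84 to 8.91 in SNL, a difference of 0.21 ± 0.19.

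Timp1, the inhibitor induced in glia by injury, had lowest, median and highest values of 5.98, 6.15 and 6.53 in SL, against 5.84, 6.46, 5.40, 6.06 and 5.93 in SNL 3, 11, 19, 23 and 27, with overlap. The difference was 0.26 ± 0.15 for SL against SNL (limma adjusted p = 0.908) and 0.25 ± 0.15 for MNL against SNL (adjusted p = 0.839). SNL 19, the lowest of all 31 arrays for Timp1, stood on the SNL side of both differences. Timp2, the constitutive inhibitor that also takes part in activating pro-MMP2, was 6.74, 6.84, 7.14, 7.44 and 7.15 in SNL 3, 11, 19, 23 and 27, against 7.13, 6.37, 6.41 and 6.60 in SC 6, 8a, 15 and 16. SNL stood above all SC arrays but SC 6, and the groups overlapped. The difference was 0.44 ± 0.21 (1.35-fold, limma adjusted p = 0.986), and between SL and SNL it was -0.04.

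Adamts1, an activity- and injury-responsive protease, had its highest value of 31 arrays in SL 4 (6.72) and was not detected on SL 20 and MC 13. Its difference was -0.11 ± 0.21 between SL and SNL, and 0.09 ± 0.20 between ML and SL. Adamts4, a brevican-cleaving aggrecanase, was detected on 15 arrays and stayed between 5.01 and 5.61. Adamts9 was lowest in SC 6 (4.78) and highest in ML 22 (6.16).

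Striata of 1 group differed widely in these genes. The median within-group SD was 0.30 on the log2 scale, against 0.217 over all probes tested, and 22 of 27 genes were above the value of all probes. For 11 of 27 genes the whole range of the 6 group means was smaller than the within-group SD. SC 6 held the highest value of 5 genes, among them Col1a2, Col5a1, Col6a1 and Lox, and SL 4 the highest value of 4, Adamts1, Col8a1, Loxl1 and Mmp14.

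**Figure D4:**
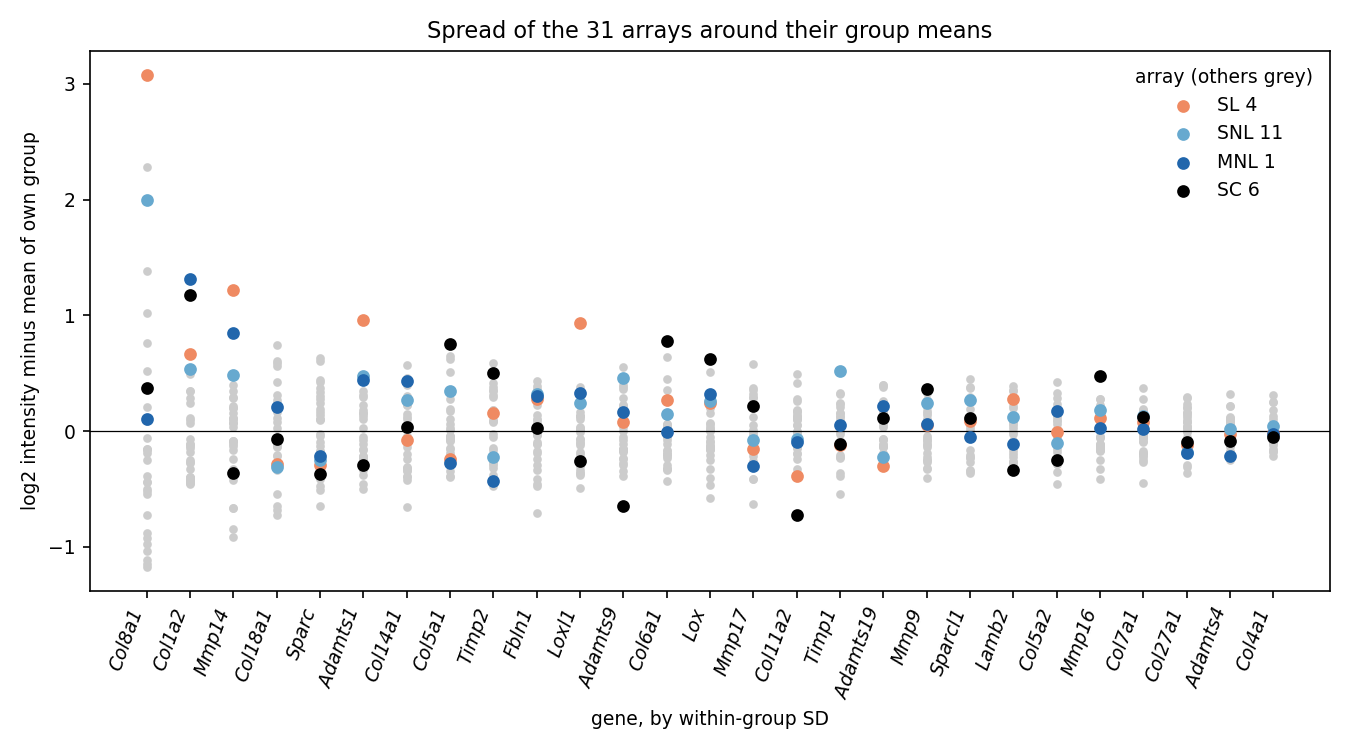
Normalized log2 intensity of each array minus the mean of its own group, for the 27 genes ordered by within-group SD (left to right); SL 4, SNL 11, MNL 1 and SC 6 are coloured and the other arrays grey. Col8a1 has the widest spread (SD 1.14) and Col4a1 the narrowest (0.14).

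Col8a1 (probe ILMN_1362033), a short-chain collagen of vessel walls and specialised basement membranes, was the extreme case. It was detected on 13 arrays and its within-group SD was 1.14. Its values were 8.99, 6.43, 5.76, 4.75, 4.77 and 4.80 in SL 4, 12, 20, 24, 28 and 32, against 4.89, 7.77, 5.34, 5.61 and 5.27 in SNL 3, 11, 19, 23 and 27. In ML 2, 10, 18, 22, 26 and 30 it was 5.05, 8.06, 4.85, 4.73, 4.80 and 7.16, and in MNL it lay between 4.60 and 5.90. MC 7 had 6.38, and the other MC and SC arrays were between 4.69 and 5.45. The high values were those of 2 SL, 2 ML, 1 SNL and 1 MC striata, and the groups overlapped throughout.

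The high arrays were those highest in choroid plexus markers. On the 6 arrays where the mean of the 8 choroid plexus markers was above 6, Col8a1 lay between 6.38 and 8.99 and was detected on 6 of 6; on the other 25 arrays it lay between 4.60 and 5.90 and was detected on 7. The marker mean was 8.84 in SL 4, 7.94 in ML 10, 7.54 in ML 30, 7.42 in SNL 11, 6.55 in MC 7 and 6.17 in SL 12, and at most 5.72 elsewhere. The summed signal of the markers ranged from 94.4 to 18782 in SL, 73.6 to 9676 in ML, 130 to 8112 in SNL, 96.4 to 1336 in MNL, 214 to 3044 in MC and 34.3 to 599 in SC. Ttr was detected on all 31 arrays, and Kcnj13 and Tmem72 on 0. The differences between groups followed the same arrays: ML minus MNL was 0.63 ± 0.60 for Col8a1, with an interval from -0.60 to 1.86, and the choroid plexus list had 8 of 8 markers above 0 with a median of 0.60. The part of choroid plexus tissue in the Col8a1 values was not tested.

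**Figure D5:**
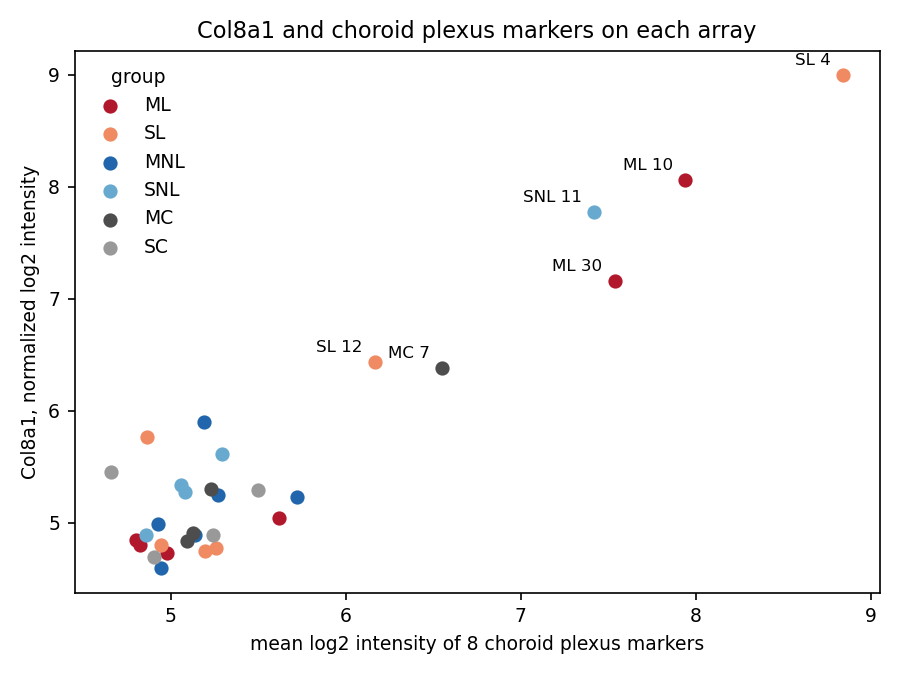
Col8a1 on each array (vertical, normalized log2 intensity) against the mean log2 intensity of 8 choroid plexus markers on the same array (horizontal), coloured by group. The 6 arrays above 6 on the horizontal axis, which are named, are the 6 highest in Col8a1; the other 25 lie at 5.90 or below.

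A list of 59 further matrix, adhesion and protease genes, drawn up for this purpose with earlier results of these arrays known, had 38 measured, and 0 were called in any planned comparison. In SL against SNL 14 were above 0 and 24 below, with a median of -0.04. Ctsk, encoding the collagen-degrading cathepsin K, and Itga7, the α7 subunit of a laminin receptor, had the smallest p values in the lesion effect over both treatments, at 0.43 ± 0.10 (limma adjusted p = 0.112) and 0.44 ± 0.11 (adjusted p = 0.139). Plat, tissue plasminogen activator, differed by 0.29 ± 0.08 in the METH effect over 3 settings (adjusted p = 0.245). Cd44, the hyaluronan receptor, differed by -0.30 ± 0.11 in SL against SNL (limma adjusted p = 0.908), but it was detected on only 4 arrays, so most of its values lie at background.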

How the data were processed

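The authors deposited, for 31 arrays, BeadStudio signal intensities, background-subtracted and not normalized between arrays, each with a detection p-value. They also deposited a log2 table. Its values equal the log2 of the signal (floored at 1) minus a constant of each probe, within 0.0734 on 30 arrays, so scale and direction are known; the centring is known only as that constant. Its column medians ran from -0.123 to 0.380, and its ML 22 column was not used. Of 22523 probes, the first 4 were left out, since moving ML 22 back left it without values for them.

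Symbols came from the platform annotation, updated by gene ID through a rat gene table (GRCr8, names only); 13749 of 13790 named probes matched. Signals were corrected and normalized with neqc (limma 3.58.1, R 4.3.3; offset 16, quantile). Probes with a detection p-value under 0.01 on at least 4 arrays (9732) entered 1 lmFit and eBayes fit of 6 group means (25 residual degrees of freedom) with Benjamini-Hochberg adjustment. All fold changes are differences of neqc log2 intensities. Intervals are 95%. The fit was tested on simulated data. The methods' t-test on globally scaled values at 1.7-fold and an unadjusted threshold of 0.025 was an alternative. The genes, lists and comparisons were chosen with earlier results of these data known, and the comparison of 6-OHDA with control rats was added after Lox had been seen. Genes given in full were up to 3 per direction and comparison with the smallest unadjusted p under 0.05, Mmp9, and Timp1, Mmp14, Sparc, Sparcl1 and Col4a1; Col8a1, Adamts, Mmp16 and Fbln1 values were chosen after they were seen. Marker lists covered projection neurons, meninges, choroid plexus, endothelium, mural cells, astrocytes, microglia, oligodendrocytes and their precursors; only the projection neuron list held genes called in a planned comparison of 2 conditions (1 lower in ML than in MNL, and 1 higher and 1 lower in the lesion effect). Figures used Python 3.11.15 with matplotlib 3.10.9.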

Additional observations from a re-analysis of the deposited data

Results flagged for a closer look

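In 14 of the 162 pairs of gene and group examined, 1 array stood farther from the others than Dixon's 95% limit allows; chance gives about 1 in 20. SC 6 did so for Col1a2 (10.73), Col5a1 (6.12) and Col6a1 (6.51), MNL 1 for Col1a2 (10.27) and Lox (6.32), and SL 4 for Fbln1 (9.04) and Loxl1 (7.04). MNL 9 was highest in its group for Col5a1 (6.06) and Sparcl1 (13.44), SNL 11 for Col8a1 (7.77), SNL 19 for Mmp17 (5.34), MC 7 for Mmp17 (4.88) and MC 14 for Col5a1 (5.60), all as normalized log2 intensity. MC 13 was lowest in its group for Col5a2 (6.41). The 2 Mmp17 values were not detected above background. Fbln5, an elastic fibre fibulin that was not tested, was detected on 1 array, ML 30, and on 0 arrays of control rats.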

How the results depend on the processing

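Under up to 46 alternatives for each planned comparison, the count of matrix genes called stayed at 0 except as follows, and no named difference changed sign. The methods' t-test at 1.7-fold and an unadjusted p under 0.025 called 1 gene, Mmp9, in ML against SNL. The test over 6 groups called 1, Lox, with array weights, and between 0 and 1 on leaving out each array in turn, the 1 being Lox without SNL 19, SC 15 or MC 13. With neighbouring striatum numbers as a replicate block the lesion effect called 1 gene, Mmp9 (0.41, limma adjusted p = 0.00961), against adjusted p-values between 0.0623 and 0.643 under the other alternatives. The labels do not state this pairing. Residuals correlated above 0.1 in 10 of 11 pairs, at most at 0.71 for ML 30 with MNL 29. The correlation was -0.07 for ML 26 with MNL 25b, so not every pair deviated together. For ML 2 with MNL 1 it was 0.70, against at most 0.31 for MNL 1 with another striatum of 6-OHDA rats. Such a maximum was exceeded in each pair except ML 26 with MNL 25b, SL 4 with SNL 3 and ML 18 with MNL 17. The consensus correlation over the blocks was 0.35. For Lox in 6-OHDA against control rats, a comparison chosen after seeing the data, the difference kept its sign in 40 alternatives, from -0.77 to -0.48, and lost its call in 14. The alternatives without SC 6, SC 8a and SNL 19 together, and without the 6 arrays high in choroid plexus markers, were also added after seeing the data. The number of arrays limits the precision, and a probe near background understates a fold change.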
